A study of Mus musculus with 4 samples.

Results

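Ligament-like tissue grown from transfected mesenchymal stem cells was compared with ligament taken from wild type mice, across all genes of a mouse expression array. A gene entered when its signal was well above background on at least 1 of the 2 arrays, which 18348 of the 30121 genes on the array did. Of these, 16454 had a difference or a bound on one, and 1894 lay so close to the detection limit of the dim array that no fold could be given. Signal was at least 2-fold higher in the tissue for 3817 genes, which is 23.2% of those compared, and at least 2-fold lower for 6489 genes, which is 39.4%. The other 6148 genes, 37.4%, differed by less than 2-fold. Counts for the gene lists below are to be read beside these shares of all genes.

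The study hybridised 1 RNA sample to each of 4 arrays. The transfected tissue came from mesenchymal stem cells of mouse embryos (strain C3H), obtained from the RIKEN cell bank, which had been given a synthesized mouse gene that the labels call A, carried by the plasmid pCAGGS. The wild type ligament came from strain C57BL/6J and carried no transgene. The other arrays held the stem cells themselves (C3H), and ligament of C57BL/6J mice made transgenic by introducing pCAGGS-A into fertilised eggs. The pCAGGS plasmid drives a gene from a strong promoter that is active in most cell types. The ligament dissected, the age of the animals and any pooling are not given in the sources used here. Strain, growth in culture against growth in an animal, and the transfection differed together between the compared samples, so that their parts in any difference cannot be told apart. With 1 array a side no test was possible, and every difference below compares these 2 RNA samples.

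Ligament is a dense connective tissue built by fibroblasts. Its strength comes from fibrils of type I collagen, to which small leucine-rich proteoglycans such as decorin and fibromodulin bind, and which lysyl oxidases cross-link outside the cell. Scleraxis and Mohawk are the transcription factors best known for the tendon and ligament lineage, and tenomodulin is a membrane protein of its mature cells. A dissected ligament also carries vessels, nerve, blood and, at its edges, muscle, bone and fat, while a culture of 1 stem cell line holds none of these unless its cells turn into them.

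Levels are given as log2 of the processed signal relative to the array's 75th percentile, so that 0 marks that percentile, and differences are tissue minus wild type ligament on the same scale. Where a gene was not well above background on the dim array, its fold is a lower bound, taken against the higher of its own signal and the dimmest well-measured signal of that array, and is written as at least that fold. Such a gene is also called undetected on that array. Of the 16454 genes, 13350 were measured on both arrays, 1427 had a bound on a higher signal in the tissue and 1677 a bound on a lower one. Repeated spots of a probe gave a standard deviation of 0.0655 in the tissue and 0.0992 in wild type ligament, or 0.12 for a difference, which is the spread between spots and leaves out the spread between animals or cultures. The lower edge of detection lay at -5.71 in the tissue and -3.41 in wild type ligament, so dim genes were seen further down in the tissue.

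The scale mattered here because both ligament arrays were dimmer. The 75th percentile signal was 2260 in the tissue and 1169 in stem cells against 286 in wild type and 303 in transgenic ligament, while the 100 brightest spots held 10.3% of all signal in the tissue and 23.5% in wild type ligament. The 7 spiked-in control transcripts were not higher in the tissue before scaling, with a median difference of -0.85 and a range from -0.97 to -0.67. Scaling on them instead would add 3.83 to every difference, and 15371 genes would then be higher and 962 lower. The differences below are therefore relative to the bulk of each array's genes, whose own median difference was -0.41, with quartiles of -1.95 and 0.89. Quantile normalisation of the arrays gave 5167 genes higher and 5057 lower, the value table deposited by the authors 5187 and 5053, and centring on ribosomal protein genes 8029 and 3609.

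On this scale the widest differences lay on the ligament side. At least 16-fold separated the samples for 246 genes that were higher in the tissue and for 1506 that were lower. These counts are not symmetric by design. Bounds on higher genes stop at the ligament's edge of -3.41 and those on lower genes at the tissue's edge of -5.71. Spike-in scaling would add 3.83 to every difference. The 3 with the largest bounds in the tissue were Rspo2, which encodes an R-spondin that strengthens Wnt signalling, Colec10, a collectin, and Ccl2, a chemokine that attracts monocytes. Rspo2 was at 6.26 in the tissue and 5.00 in stem cells and was not well above background on either ligament array, which makes it at least 819-fold higher in the tissue. Colec10 was at 5.74 and 4.55 on the same arrays, at least 570-fold, and Ccl2 at 4.98 and 3.82, at least 335-fold. All 3 were thus bright in both samples of cultured origin and undetected in both ligaments. The Rspo2 probe lies at chr15:42852727-42852786 of the mm9 build.

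Below these, Lurap1l, a regulator of the actin cytoskeleton, was 115-fold higher, Gas1, a co-receptor for Hedgehog, 90.1-fold, Scara5, a ferritin receptor, by 6.23 on the log2 scale, Ptx3, a secreted pattern recognition protein, 63.1-fold and Snai1, a repressor of epithelial genes, 54.5-fold. Each of these 5 was also well above background in stem cells, between 2.93 and 5.53. For Gas1 and Scara5 a second probe gave much smaller differences, 0.01 and 1.38, so that their size depends on the probe. Over all genes, 2769 had several probes measured on both arrays, and for 104 of them probes passed 2-fold in opposite directions.

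**Figure D1:**
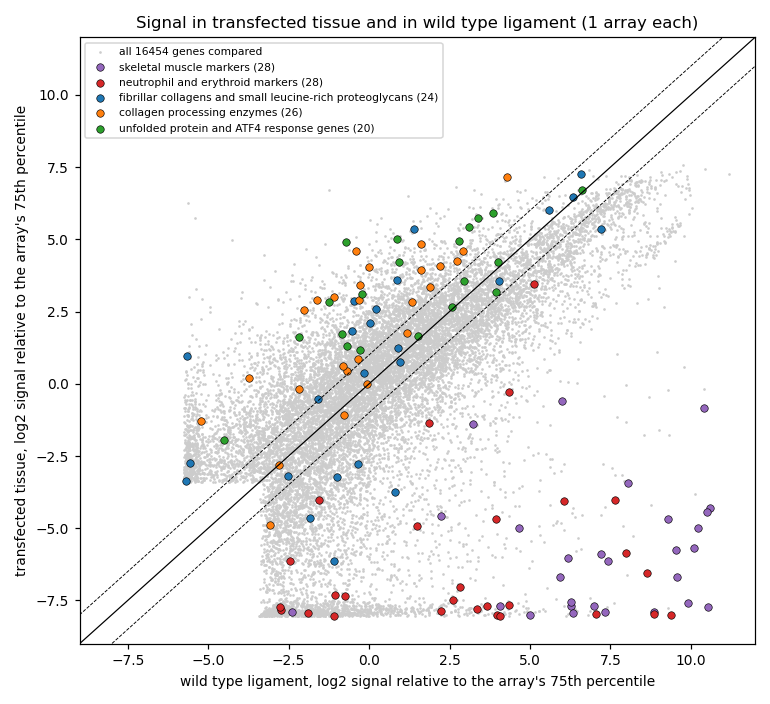
Level of each compared gene in wild type ligament (x axis) and in the transfected tissue (y axis), both as log2 signal relative to the array's 75th percentile, 1 array each. Grey points are all 16454 genes and coloured points the members of the lists named in the key. The muscle and blood genes lie far to the right at the bottom, while most collagen processing enzymes lie above the diagonal.

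Skeletal muscle genes separated the samples most. All 28 skeletal muscle markers on the array were lower in the tissue, with a median difference of -12.37, against 39.4% of all genes lower and a median of -0.41. In wild type ligament all 28 were well above background, at -2.40 to 10.58, and in the tissue 10 were, none above -0.60. Tnnc2, the calcium-binding troponin of fast muscle, was at 10.23 in wild type ligament, 10.18 in transgenic ligament, -4.99 in the tissue and -5.26 in stem cells, a difference of -15.22. Myh8, the perinatal myosin heavy chain, was at 10.54 and 10.32 in the ligaments and not well above background in the tissue or stem cells, at least 77776-fold lower in the tissue. The myosin heavy chain genes resemble each other in sequence, so that their probes may share signal. The Tnnc2 probe lies at chr2:164602661-164602720 (mm9).

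Most of the other widest measured differences were of the same kind. Pvalb (-14.94), the calcium buffer parvalbumin, Tnni2 (-14.88), Actn3 (-13.96) and Cacna1s (-13.47), the calcium channel of muscle membranes, were lower still than most list members. Pvalb was at 10.52 and 10.30 in the ligaments, -4.42 in the tissue and -3.38 in stem cells, so both cultured samples were at the bottom of the scale. Myf6, Cdh15, Chrna1, Myod1 and Myog, which regulate or mark the muscle lineage, were among 8 of 8 compared myogenic regulators that were lower, by at least 20.5-fold to at least 323-fold for these 5. Pax7 and Myf5, markers of muscle stem cells, were not well above background on either array. None of the compared members of either list was higher in the tissue.

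Blood and immune markers were likewise on the ligament side. All 15 neutrophil markers (median -8.64), all 13 erythroid markers (-4.66), all 13 eosinophil and mast cell markers compared (-5.03), all 12 lymphoid markers compared (-4.39) and 12 of 13 macrophage markers (-5.42) were lower in the tissue. S100a9, a calcium-binding protein of neutrophils, was at 9.38 in wild type and 8.34 in transgenic ligament and was not well above background in the tissue or stem cells. Prg2, the major basic protein of eosinophils, was at 4.91 in wild type and -0.27 in transgenic ligament and undetected in both cultured samples, so that the ligaments also differed from each other. Lyz1, a lysozyme gene in the macrophage list, was at 5.09 and 3.09 in the ligaments against -2.46 in the tissue. Whether its probe also reads Lyz2, listed beside it, was not tested. Cd14, a co-receptor for bacterial lipopolysaccharide, was the macrophage marker that went the other way, at 0.18 in the tissue and -2.24 in wild type ligament. Haemoglobin genes such as Hba-a1 and Hbb-bt were at 8.62 and 8.85 in wild type ligament and not well above background in the tissue; these genes have near-identical copies and cannot be separated by name.

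Markers of vessels, skin, nerve, fat and bone followed, beside 39.4% of all genes lower. Among endothelial markers 13 of 14 were lower (median -3.39), led by Robo4, Cldn5 and Cdh5, which were lower by at least 57.3-fold, 56.0-fold and 54.8-fold, and Vwf, von Willebrand factor, differed by -3.70. All 17 epidermal markers compared were lower (median -4.41), among them the keratins Krt5 and Krt14 and the cornified envelope gene Lor, which were higher still in transgenic ligament. Krt5 was at 2.93 in wild type and 5.02 in transgenic ligament. The myelin genes Mbp and Mal were among 9 of 14 nerve markers that were lower, and S100b was higher (1.46). Of 15 adipocyte markers 11 were lower (median -2.45), with Cfd at 6.19 in wild type ligament and 0.05 in the tissue and Car3 differing by -12.81. Pparg, the master regulator of fat cell formation, was higher in the tissue, at 1.98 against -0.23, with stem cells at 1.56.

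All 9 osteoclast markers compared were lower (median -4.28). Acp5, the tartrate-resistant phosphatase of osteoclasts, was at 6.44 in wild type ligament and not well above background in the tissue, at least 4527-fold lower, and Ctsk, the collagen-cleaving cathepsin K, differed by -8.76. Bone matrix genes Ibsp, Bglap and Bglap2 were lower by at least 383-fold, by at least 288-fold and by 197-fold. Runx2, the transcription factor that starts bone formation, was instead at least 4.05-fold higher in the tissue, and Sp7, which acts after it, was not well above background on any array. Of 12 cartilage markers compared, 3 were higher, 5 lower and 4 within 2-fold (median -0.42). Among the higher ones, Sox9, the transcription factor of chondrocytes, was at 1.88 in the tissue and 2.03 in stem cells and not well above background in wild type ligament, at least 39.2-fold higher. Acan, the aggregating proteoglycan of cartilage, was at -5.35 in the tissue, close to its detection limit.

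These lists describe RNA from whole pieces of tissue, in which fewer cells of a type and less RNA per cell cannot be told apart. Over members detected on both arrays alone, some medians lay nearer 0: -2.08 for 2 erythroid, -2.32 for 5 osteoclast and -0.88 for 8 nerve markers. Summed over the list, the skeletal muscle markers stood at 13.68 in wild type and 13.51 in transgenic ligament against 1.07 in the tissue and 2.15 in stem cells, and the erythroid markers at 10.05 and 8.25 against 3.46 and 4.28. The part of muscle, blood, skin and bone RNA in the differences of other genes was not tested.

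**Figure D2:**
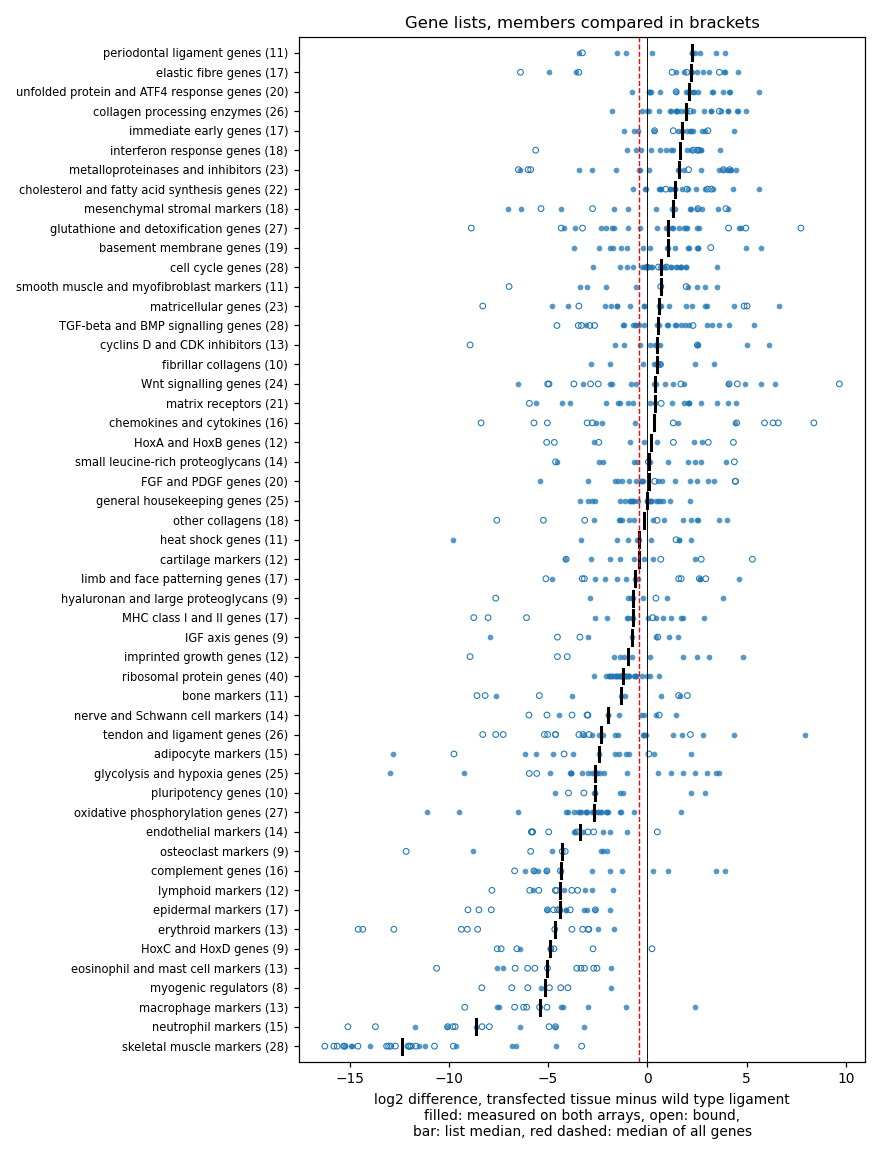
Log2 difference, tissue minus wild type ligament, of each compared member (points, open where the value is a bound) of each gene list, with the list median as a bar and the median of all genes, -0.41, as a red dashed line. Muscle, neutrophil and other non-fibroblast lists lie to the left, down to a median of -12.37, and elastic fibre, collagen processing and unfolded protein response lists to the right.

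Of 10 fibrillar collagens compared, 2 were higher, 2 were lower and 6 lay within 2-fold, with a median of 0.48. That median was 1.01 with quantile normalisation, 1.08 in the deposited table and 1.75 with ribosomal centring. Col1a2 and Col3a1, chains of types I and III collagen, were at 7.25 and 6.02 in the tissue and 6.60 and 5.59 in wild type ligament, differences of 0.65 and 0.44. Col1a1, the other chain of type I collagen, was at 5.35 in the tissue, 7.21 in wild type ligament, 6.70 in transgenic ligament and 6.41 in stem cells. With a difference of -1.87 it was lowest in the tissue of the 4 samples, while its partner Col1a2 lay within 2-fold. Col5a1, a chain of the type V collagen that sets fibril diameter, was 10.2-fold higher (3.35), and Col2a1 of cartilage 5.21-fold higher (2.38). The Col1a1 probe lies at chr11:94813115-94813174 (mm9).

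Type VI collagen, which forms beaded filaments around cells, was higher in all 3 of its main chains. Col6a1 was at 6.07 in the tissue, 2.44 in wild type ligament, 2.30 in transgenic ligament and 6.23 in stem cells. Col6a1, Col6a2 and Col6a3 differed by 3.63, 3.99 and 2.56. Both cultured samples were thus far above both ligaments. Among other collagens 6 were higher, 7 lower and 5 within 2-fold, median -0.19. The direction of that median was not settled, since it was 0.45 with quantile normalisation, 0.50 in the deposited table, 0.57 over genes detected on both arrays and -1.20 with normexp correction. Col22a1, the collagen of muscle-tendon junctions, was at 1.87 and 3.38 in wild type and transgenic ligament and undetected in the tissue, at least 191-fold lower. Col17a1 and Col7a1, which anchor skin epithelium, were lower by at least 37.5-fold and by 6.48-fold, and the fibril-associated Col12a1 and Col14a1 by 2.73-fold and 2.39-fold.

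Small leucine-rich proteoglycans split by member, with 6 higher, 4 lower and 4 within 2-fold of 14 compared (median 0.09, and 1.13 with quantile normalisation). Dcn, decorin, was at 6.47 in the tissue, 6.34 in wild type ligament, 6.71 in transgenic ligament and 3.70 in stem cells. The tissue thus lay within 2-fold of both ligaments, with stem cells alone low. Lum, lumican, was at 3.54, 4.05, 4.79 and -1.31 in the same samples. Stem cells were again lowest, and the tissue lay within 2-fold of wild type ligament only. The Dcn probe lies at chr10:96980233-96980292 and the Lum probe at chr10:97035210-97035269 (mm9).

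Ogn, osteoglycin, was 15.5-fold higher in the tissue (3.95), Bgn, biglycan, 6.59-fold (2.72), Aspn, asporin, 5.20-fold (2.38) and Omd, osteomodulin, 4.19-fold (2.07). Epyc, epiphycan, a proteoglycan best known from growth plate cartilage, was at 0.97 in the tissue, -3.45 in stem cells and not well above background in either ligament. Its probe lies near those of Dcn and Lum, at chr10:97143965-97144024 (mm9), where these proteoglycan genes form a cluster. Fmod (fibromodulin) and Kera (keratocan), which are marked in tendon, were 5.40-fold and 4.70-fold lower, Chad (chondroadherin) at least 24.6-fold lower, and Podn (podocan), which was at -3.74 in the tissue, was 23.4-fold lower and also below the stem cells, at -0.19.

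**Figure D3:**
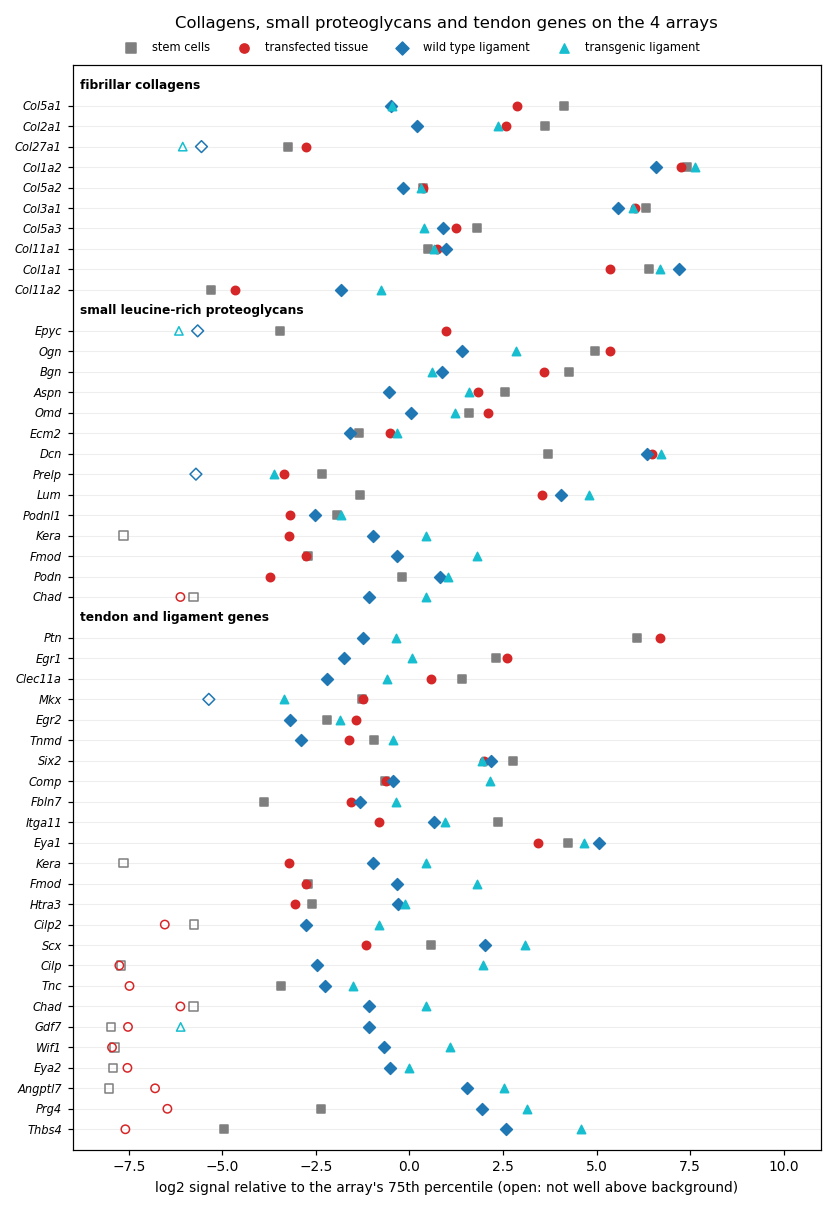
Levels of compared fibrillar collagens, small leucine-rich proteoglycans and tendon and ligament genes on each of the 4 arrays, as log2 signal relative to the array's 75th percentile, open where not well above background. Dcn and Lum in the tissue sit beside the ligaments, Ptn sits beside the stem cells, and Thbs4, Prg4 and Angptl7 are not well above background in the tissue.

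Tendon and ligament genes were mostly lower: 16 of 26 compared were lower and 6 higher, with a median of -2.33. Of all genes, 39.4% were lower and 23.2% higher. Over the 15 detected on both arrays the median was -0.18, so the list's shift rests on the genes with bounds. Scx, scleraxis, was at -1.17 in the tissue, 0.56 in stem cells, 2.02 in wild type and 3.10 in transgenic ligament, a difference of -3.19. The tissue thus had the lowest Scx signal of the 4 samples. Mkx, Mohawk, was at -1.24 in the tissue and -1.28 in stem cells and was not well above background in wild type ligament, at least 4.51-fold higher in the tissue. Tnmd, tenomodulin, was at -1.60 in the tissue, -2.89 in wild type ligament, -0.44 in transgenic ligament and -0.96 in stem cells. Tnmd was thus 2.44-fold higher in the tissue than in wild type ligament (1.29). Its level in the tissue was below those in transgenic ligament and stem cells. The Scx probe lies at chr15:76289708-76289767 (mm9).

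Several secreted proteins of the list were far lower. Thbs4, a thrombospondin of tendon and muscle, was at 2.58 in wild type and 4.59 in transgenic ligament and not well above background in the tissue, at least 313-fold lower. Prg4, the lubricant lubricin, was at least 199-fold lower and Angptl7, an angiopoietin-like protein, at least 153-fold. Comp, cartilage oligomeric matrix protein, was at -0.62 and -0.44, within 2-fold. Six2, a transcription factor of limb tendon, also lay within 2-fold (-0.17).

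Ptn moved the other way and had the widest measured difference of all genes in that direction. Ptn encodes pleiotrophin, a heparin-binding growth factor made by developing connective tissue. It was at 6.70 in the tissue, 6.07 in stem cells, -1.23 in wild type and -0.35 in transgenic ligament, a 245-fold difference between tissue and wild type ligament (7.94). Its probe lies at chr6:36691376-36691435 (mm9). Egr1, which acts on tendon collagen genes and is also an immediate early gene, was 20.3-fold higher (4.35), and Clec11a, osteolectin, 6.92-fold (2.79). Of the genes listed for periodontal ligament, 6 of 11 were higher and 4 lower. Postn, periostin, was at 4.71 in the tissue and 2.43 in wild type ligament, S100a4 was 10.9-fold higher and Msx1 6.35-fold, while Lepr, the leptin receptor, was 10.8-fold lower and Gli1, a Hedgehog target, at least 9.64-fold lower.

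Collagen processing enzymes were higher almost throughout. Of 26 compared, 21 were higher and 1 lower, median 1.96, against 23.2% of all genes higher. Loxl1 and Lox, lysyl oxidases that cross-link elastin and collagen, were at 4.59 and 2.54 in the tissue and -0.40 and -2.01 in wild type ligament, differences of 4.99 and 4.55. The Loxl1 difference was 4.99 to 5.31 over its 2 probes. Loxl2 lay within 2-fold (-0.29), though another of its probes gave -2.56. The Loxl1 probe lies at chr9:58138570-58138629 (mm9).

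Several genes for proteins that act on collagen inside the cell were higher as well. Serpinh1, the collagen chaperone HSP47, differed by 1.51, and the prolyl hydroxylase chains P4ha1, P4ha2 and P4hb by 1.19, 1.48 and 1.71. Crtap and P3h3, of the prolyl 3-hydroxylase family, differed by 4.04 and 4.54, the peptidyl-prolyl isomerases Fkbp10 and Fkbp14 by 3.23 and 4.08, and the lysyl hydroxylase Plod3 by 3.22. Outside the cell, Bmp1, the procollagen C-proteinase, differed by 2.30, and Pcolce, which enhances it, was at 7.15 in the tissue against 4.27 in wild type ligament. The single lower gene was Tll1, a relative of Bmp1, at -1.79, though the mean of its probes gave 0.06.

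Elastic fibre genes were higher in 13 of 17 and lower in 4, with none within 2-fold (median 2.21). Ltbp2, a latent TGF-beta binding protein of microfibrils, was at 3.70 in the tissue, -0.87 in wild type ligament, -0.58 in transgenic ligament and 4.95 in stem cells. Fbln5 and Efemp2, fibulins needed for elastic fibre assembly, differed by 3.92 and 3.86, and Fbn1, fibrillin-1, by 3.12. Eln, elastin itself, was at -2.17 in the tissue and not well above background in wild type ligament, at least 2.37-fold higher. The lower members were Mfap2 (at least 83.8-fold on 1 probe and -2.36 on another), Ltbp4 (-4.96), Mfap4 (-3.61) and Fbln1 (at least 10.9-fold), so that members of 1 family, such as Ltbp2 and Ltbp4, stood on opposite sides.

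Matricellular genes divided evenly, 9 higher and 8 lower of 23, against 23.2% of all genes higher and 39.4% lower. Sparc, osteonectin, was among the brightest genes on every array, at 7.20 in the tissue and 7.37 in wild type ligament, though its second probe gave -1.29. Smoc2 also lay within 2-fold of wild type ligament, at 5.25 and 4.59. Fn1, fibronectin, was 3.81-fold higher (1.93), and the CCN family members Ccn5, Ccn4 and Ccn1 were 97.7-fold, 8.05-fold and 7.45-fold higher, while Ccn2, connective tissue growth factor, was within 2-fold (0.60). Tnxb, tenascin-X, whose loss causes lax joints and skin, was at 1.33 in wild type ligament and -3.45 in the tissue, 27.5-fold lower, and Tnc, tenascin-C, at least 10.9-fold lower.

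Basement membrane genes were higher in 10 of 19 and lower in 6. Nid2 (nidogen-2) and Lama4 (laminin alpha 4) were 53.2-fold and 31.0-fold higher, and the type IV collagen chains Col4a1, Col4a2 and Col4a5 were 4.17-fold to 5.81-fold higher. Lama2, the laminin chain of muscle basement membrane, was 3.64-fold lower, and Col4a4 13.1-fold lower. Among hyaluronan and large proteoglycan genes 2 of 9 were higher and 2 lower. Vcan, versican, differed by 3.80 on 1 probe and 0.77 on another.

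In the list of metalloproteinases and their inhibitors 13 of 23 were higher and 7 lower (median 1.58). Mmp14, a membrane-anchored collagenase, and Mmp2, the gelatinase it activates, were at 2.54 and 4.42 in the tissue against -1.94 and 0.20 in wild type ligament, differences of 4.48 and 4.22. Both exceeded the stem cells as well, at 0.95 and 3.75. Their inhibitors Timp2 and Timp3 differed by 2.70 and 4.02, and the aggrecan-cleaving Adamts1 and Adamts5 by 3.79 and 3.59. Adamts4 was at least 14.3-fold higher on 1 probe, while its other probe gave -3.43, so no direction is given for it. Mmp9 and Mmp13, made by osteoclasts, blood cells and bone, and the neutrophil collagenase Mmp8 were lower by at least 58.7-fold, at least 90.1-fold and 84.3-fold. Timp4 was at least 64.3-fold lower.

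Matrix receptors followed no single direction (9 higher and 7 lower of 21, against 23.2% of all genes higher and 39.4% lower). Ddr2, a tyrosine kinase that binds fibrillar collagen, was at 5.22 in the tissue, 0.75 in wild type ligament, 0.39 in transgenic ligament and 3.50 in stem cells, 22.0-fold higher than in wild type ligament. Sdc2 and Sdc1, syndecans, were 16.8-fold and 11.5-fold higher. The integrin chains Itga5 and Itgav, which bind fibronectin and vitronectin, differed by 2.12 and 2.05. The collagen-binding integrin chains Itga1, Itga10 and Itga11 were lower by 19.5-fold, 14.7-fold and 2.80-fold, and Itga7, the laminin receptor of muscle, by 49.4-fold.

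Stromal markers also divided, 10 of 18 higher and 6 lower. Ly6a (Sca-1), Prrx1, Pdgfrb, Pdgfra and Thy1, which mark mesenchymal stem and progenitor cells, were higher by 16.5-fold, 11.6-fold, 5.77-fold, 4.44-fold and 6.81-fold. Ly6a was at 5.62 in the tissue and 6.29 in stem cells against 1.58 and 1.86 in the ligaments. Fap, Cd34 and Pi16, of the same list, were lower by 128-fold, 82.6-fold and 20.4-fold. Cd34 was at 4.04 and 4.19 in the ligaments, -2.33 in the tissue and -1.96 in stem cells. Pi16 was at 0.29 in the tissue and 4.64 in wild type ligament. For Ly6a and Cd34 the tissue thus stood on the stem cells' side. The markers named here are only part of the list.

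Signalling genes showed wide differences in both directions. Over all genes compared 23.2% were higher and 39.4% lower, and the counts of the signalling lists stand beside those shares. Of 24 Wnt pathway genes 10 were higher and 9 lower (median 0.39, and -0.12 with normexp correction). Beside Rspo2, the R-spondin Rspo3 was 53.0-fold higher (5.73), the receptor gene Fzd2 85.9-fold (6.42), and the secreted Wnt antagonists Sfrp2 and Sfrp1 29.9-fold and at least 23.2-fold. The ligand gene Wnt4 was at 1.98 and 1.70 in the ligaments, -4.55 in the tissue and -5.02 in stem cells, 92.8-fold lower, and the antagonists Wif1, Sfrp5 and Dkk2 were lower by at least 32.4-fold, 31.0-fold and 13.0-fold. Axin2, a general target of Wnt signalling, was not well above background on any of the 4 arrays.

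In the TGF-beta and BMP pathway 12 of 28 genes were higher and 8 lower (median 0.53, and -0.29 with the mean of all probes). Among the ligands, Bmp4 was at 5.76 in the tissue, 5.92 in stem cells, 0.36 in wild type and 0.93 in transgenic ligament, 42.0-fold higher. Bmp2 and Bmp7 were well above background in both ligaments and in neither cultured sample, at least 23.5-fold and 6.30-fold lower. Tgfb2 was 8.09-fold higher. The receptor gene Tgfbr2 differed by 3.62 on 1 probe and -1.49 on another. Fstl1, a secreted BMP-binding protein, was 17.1-fold higher and the BMP antagonist Nog, noggin, 8.41-fold lower. Id3, a target of BMP signalling, was 9.57-fold higher.

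FGF and PDGF genes were higher in 7, lower in 5 and within 2-fold in 8 of 20 (median 0.07, and -0.15 with normexp correction), and IGF axis genes in 2, 4 and 3 of 9 (median -0.78). Hgf and Fgf10 were at least 21.6-fold and 21.8-fold higher, Fgf7 10.3-fold higher and Fgf1 41.7-fold lower. Igfbp6, which binds insulin-like growth factor 2, was at 3.60 in wild type and 3.98 in transgenic ligament, -4.33 in the tissue and -3.56 in stem cells, 244-fold lower, and Igf2 was at least 23.1-fold lower. Igf1 differed by 1.57, but its 5 probes ran from -1.52 to 2.39. Among chemokines and cytokines 8 of 16 were higher and 7 lower: Ccl7, Cxcl5 and Cxcl1 were at least 80.7-fold, 60.0-fold and 22.6-fold higher and Csf1, the macrophage growth factor, 21.3-fold, whereas Cxcl14 and Ccl11 were at least 331-fold and 52.3-fold lower.

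**Figure D4:**
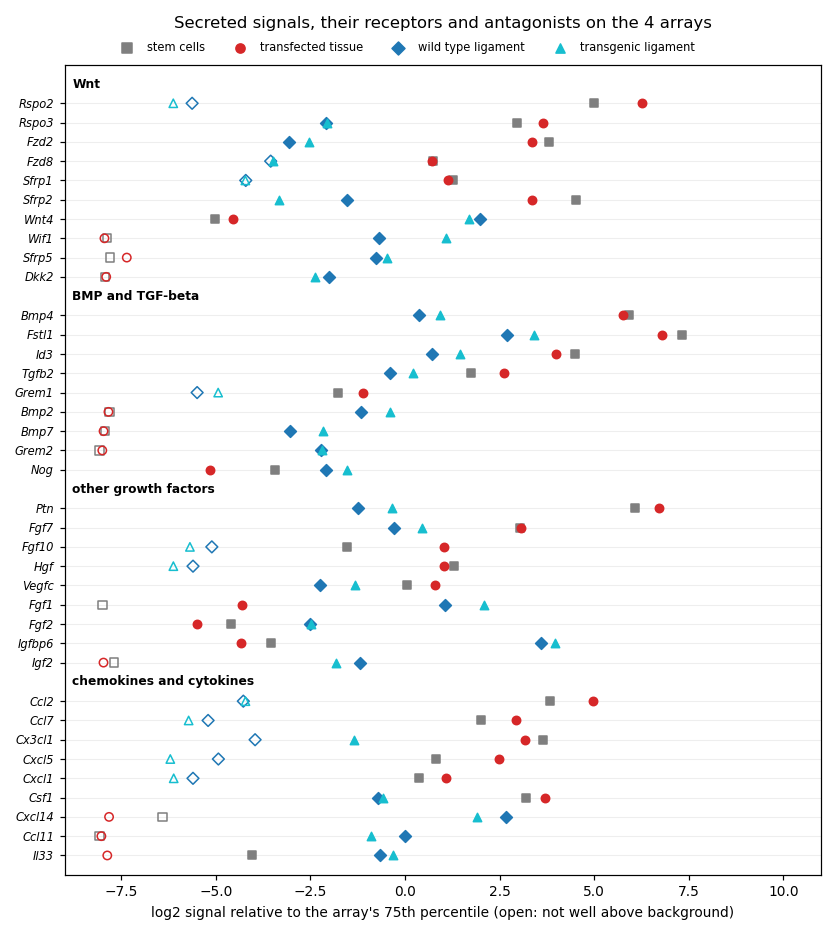
Levels of signalling genes on each of the 4 arrays, as log2 signal relative to the array's 75th percentile, open where not well above background. For most genes drawn, such as Rspo2, Fzd2, Bmp4 and Igfbp6, the tissue sits beside the stem cells and the ligaments sit together.

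Hox genes, which record the position along the body at which a cell arose, differed by cluster. In clusters C and D, 8 of 9 compared genes were lower and none was higher (median -4.88). Hoxc9 was at 2.19 in wild type ligament, 2.04 in transgenic ligament, -4.24 in the tissue and -2.45 in stem cells, 86.5-fold lower. Hoxc10, Hoxd8 and Hoxd9 were at least 165-fold, 189-fold and 95.0-fold lower. The Hoxc9 probe lies at chr15:102814735-102814794 (mm9). The ninth, Hoxc13, was dim in the tissue and undetected in the ligaments.

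In cluster A the direction ran with position in the cluster. Hoxa2, Hoxa3, Hoxa5 and Hoxa7, on the side of the first genes, were higher in the tissue, by at least 20.2-fold, 5.04-fold, at least 2.48-fold and 6.82-fold, with Hoxa4 within 2-fold (-0.15) and Hoxa6 not well above background in either sample. Hoxa9 was at -2.55 in the tissue, -3.02 in wild type and -2.47 in transgenic ligament and was not well above background in stem cells. The last genes Hoxa10, Hoxa11 and Hoxa13 were lower, by 6.39-fold, at least 25.7-fold and at least 5.44-fold. In cluster B, Hoxb6 was at least 33.6-fold lower, Hoxb3 was within 2-fold (-0.85) and the others were not well above background in either sample. The stem cells had the same side as the tissue for Hoxa2, Hoxa3, Hoxa5, Hoxa7, Hoxa10, Hoxa11 and Hoxa13.

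**Figure D5:**
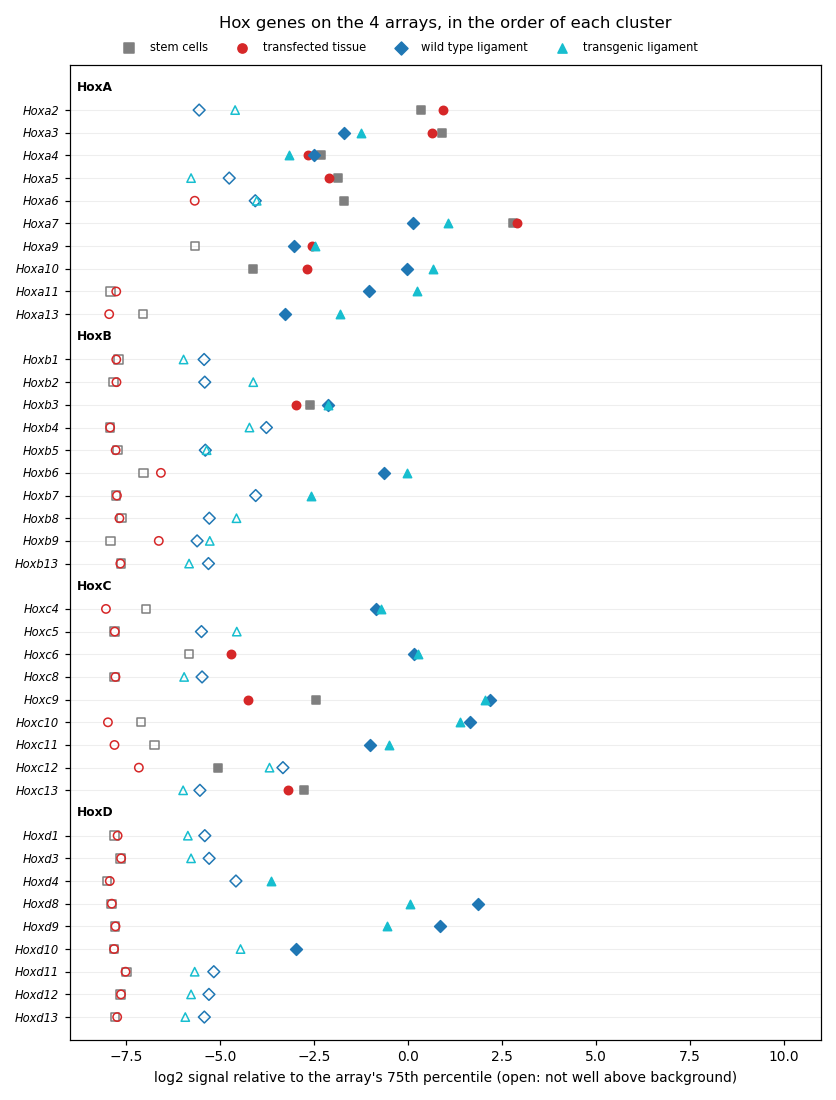
Levels of genes of the 4 Hox clusters, in their order along each cluster, on each of the 4 arrays as log2 signal relative to the array's 75th percentile, open where not well above background. Hoxa2, Hoxa3, Hoxa5 and Hoxa7 are higher in the tissue and stem cells, and Hoxa10 to Hoxa13 and the cluster C and D genes detected in wild type ligament are higher in the ligaments.

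Other regional transcription factors differed in the same samples. Nr2f1, Osr1 and Meis2 were higher by 6.03, 5.93 and 4.64 on the log2 scale. The hindlimb genes Tbx4 and Pitx1 were well above background in both ligaments and in neither cultured sample. Tbx4 was at -2.43 and -2.20 in the ligaments and Pitx1 at -2.54 and -1.85. Tbx15, which shapes limb and trunk skeleton, was 27.5-fold lower. Of 17 limb and face patterning genes, 7 were higher and 8 lower, against 23.2% of all genes higher and 39.4% lower.

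Genes of cell division lay somewhat above the bulk of genes. Of 28 compared, 10 were higher in the tissue, 3 lower and 15 within 2-fold (median 0.71). In the comparison of stem cells with transgenic ligament, which shares no array with this one, all 29 cell cycle genes compared were higher, with a median of 4.01. Ccnb1, cyclin B1, was at 0.17 in the tissue, -0.06 in wild type ligament, -0.44 in transgenic ligament and 3.42 in stem cells. For Bub1 and Cdca8, which act at the kinetochore, the tissue also lay within 2-fold of both ligaments and the stem cells alone were high. Rrm2, the ribonucleotide reductase subunit, was 6.72-fold lower in the tissue than in wild type ligament (-2.75), and Kif20a, a mitotic kinesin, 11.6-fold higher. All 13 erythroid and all 15 neutrophil markers were lower in the tissue, and the part of blood cells in the cell cycle values was not tested.

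Of 13 D-type cyclin and cell cycle inhibitor genes, 5 were higher, 3 lower and 5 within 2-fold (median 0.49). Ccnd1 and Ccnd2, D-type cyclins, were at 3.75 and 3.56 in the tissue, 4.63 and 3.25 in stem cells, and -2.40 and -1.46 in wild type ligament, 71.1-fold and 32.6-fold higher. Cdkn1c, the imprinted cell cycle inhibitor p57, was at 3.22 and 3.77 in the ligaments and not well above background in the tissue, at least 487-fold lower. Cdkn2a and Cdkn2b, inhibitors of the kinases that D-type cyclins activate, were higher by at least 5.76-fold and by 5.97-fold. Of the pluripotency genes, 8 of 10 were lower, against 39.4% of all genes, and 2 higher (median -2.64). The higher ones were Klf4 and Myc, which many cell types express. The list was about as low in stem cells, with a median level of -3.73 against -3.87 in the tissue. In wild type and transgenic ligament that level was -1.82 and -2.15. Immediate early genes were higher in 12 of 17 and lower in 1 (median 1.77).

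The unfolded protein and ATF4 response was among the lists furthest to the tissue side. All of its 20 genes were compared, 14 were higher, none was lower and the median was 2.09. In stem cells against transgenic ligament the same list had 9 higher, 4 lower and a median of 0.59. Trib3, a pseudokinase induced by ATF4 and CHOP, was at 4.91 in the tissue, -0.71 in wild type ligament, 0.77 in transgenic ligament and 3.56 in stem cells, 49.1-fold higher. Ddit3, which encodes CHOP, was at 2.85, -1.24, -0.99 and 0.63 in the same order, so that the tissue was highest of the 4 for both. Asns, asparagine synthetase, was 17.9-fold higher and Pdia4, Manf and Creld2, which act in or are secreted from the endoplasmic reticulum, 13.8-fold, 10.1-fold and 9.73-fold. The Trib3 probe lies at chr2:152163161-152163220 (mm9).

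Promoters of this list are shown because many of its members were higher together. Many genes of the response carry an ER stress response element, made of CCAAT, 9 bases of any kind and CCACG, through which ATF6 acts with NF-Y. RefSeq windows of 300 bases, from 250 before to 50 after the start of each gene (build GRCm38.p6), were searched on both strands for it. It was found in 39 of 32851 windows (0.119%) and in 6 of the 18 list genes with a window. These were Calr, Creld2, Dnajc3, Hsp90b1, Hspa5 and Pdia6, all higher in the tissue, as were 14 of all 20 list genes. The list was made of known genes of the response, so its share with the element is not a result of these data. Below are the 250 bases before the start of 3 genes with the element, 5′ to 3′ on the strand of the gene, with the element in capitals. Hspa5 and Hsp90b1, the chaperones BiP and GRP94, were chosen after their values were seen. They differed by 2.05 and 2.32.
Creld2, chr15:88819396-88819645, plus strand: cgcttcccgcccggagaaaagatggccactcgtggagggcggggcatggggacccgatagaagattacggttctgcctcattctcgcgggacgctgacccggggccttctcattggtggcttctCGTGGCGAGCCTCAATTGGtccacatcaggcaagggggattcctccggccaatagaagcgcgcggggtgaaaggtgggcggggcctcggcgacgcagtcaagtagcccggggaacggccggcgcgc
Hspa5, chr2:34771840-34772089, plus strand: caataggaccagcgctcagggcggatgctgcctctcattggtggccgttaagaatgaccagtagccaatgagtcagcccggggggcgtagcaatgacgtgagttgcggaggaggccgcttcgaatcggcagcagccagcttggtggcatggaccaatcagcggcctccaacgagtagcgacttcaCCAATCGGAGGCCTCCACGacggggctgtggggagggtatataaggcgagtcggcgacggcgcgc
Hsp90b1, chr10:86705445-86705694, minus strand: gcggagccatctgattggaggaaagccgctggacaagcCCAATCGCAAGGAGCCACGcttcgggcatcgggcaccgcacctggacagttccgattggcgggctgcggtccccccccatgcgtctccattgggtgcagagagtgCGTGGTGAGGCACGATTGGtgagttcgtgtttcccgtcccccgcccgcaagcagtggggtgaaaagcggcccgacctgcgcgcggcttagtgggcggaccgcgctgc
The element ended 46 bases before the start in Hspa5, and Hsp90b1 held 2, in opposite orientations. A match describes the sequence and is not evidence of binding.

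Interferon response genes were higher in 11 of 18, lower in 2 and within 2-fold in 5 (median 1.64). Ddx58, which encodes the RNA sensor RIG-I, was at 2.22 in the tissue, 1.84 in stem cells, -1.47 in wild type and -1.48 in transgenic ligament, 12.9-fold higher. Ifit3, an antiviral protein, was at 1.49 in the tissue, -0.34 in stem cells, -1.21 in wild type and -1.51 in transgenic ligament. Ifit1 and Ifi44 were not well above background in either ligament and were at least 5.73-fold and 6.05-fold higher. Bst2, tetherin, was 5.95-fold higher. Rsad2, viperin, was at -0.08 in wild type ligament and undetected in the tissue and stem cells, at least 49.3-fold lower, so the list did not move as one.

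The core of the interferon-stimulated response element, made of TTTC, 2 bases of any kind and TTTC, was searched in the same windows because this list also moved mostly one way. It occurred in 1131 of 32851 windows (3.44%) and in 11 of the 17 list genes with a window, which had 19 windows. Of these 11 genes, 6 were higher in the tissue and 1, Rsad2, lower. Of the other 4, Ifih1 and Oas1a lay within 2-fold, and Cxcl10 and Oas3 were too dim for a fold. In the whole list 11 of 18 genes compared were higher. This list too was made of known genes of the response, so its share with the core is not a result of these data. The 250 bases before the start of 3 higher genes follow, with the core in capitals.
Ifit1, chr19:34640639-34640888, plus strand: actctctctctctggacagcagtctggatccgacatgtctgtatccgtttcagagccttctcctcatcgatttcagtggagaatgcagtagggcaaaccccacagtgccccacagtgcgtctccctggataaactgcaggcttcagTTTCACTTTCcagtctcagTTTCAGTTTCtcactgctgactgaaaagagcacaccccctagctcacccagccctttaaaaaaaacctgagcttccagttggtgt
Ifit3, chr19:34583279-34583528, plus strand: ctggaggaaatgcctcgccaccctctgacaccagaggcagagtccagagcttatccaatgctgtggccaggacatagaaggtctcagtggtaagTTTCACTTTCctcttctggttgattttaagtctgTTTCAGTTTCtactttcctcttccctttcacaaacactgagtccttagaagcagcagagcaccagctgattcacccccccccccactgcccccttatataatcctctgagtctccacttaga
Bst2, chr8:71537473-71537722, minus strand: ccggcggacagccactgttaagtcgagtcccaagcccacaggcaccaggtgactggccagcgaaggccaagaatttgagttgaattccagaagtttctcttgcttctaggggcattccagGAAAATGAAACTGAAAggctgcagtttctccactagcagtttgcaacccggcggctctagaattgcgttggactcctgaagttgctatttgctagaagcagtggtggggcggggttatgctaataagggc
Each held 2 copies. In Ifit1 and Ifit3 they ran separately on the strand of the gene, and in Bst2 they overlapped on the opposite strand.

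Cholesterol and fatty acid synthesis genes were higher in 15 of 22 and lower in none (median 1.40). Scd2, a stearoyl-CoA desaturase, was at 5.66 in the tissue, 5.32 in stem cells, 0.04 in wild type and 0.03 in transgenic ligament, 49.0-fold higher. Sqle, an enzyme of sterol synthesis, was 19.9-fold higher. The tissue lay below the stem cells for Sqle, at 3.53 against 4.65.

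Energy metabolism genes were mostly lower. Oxidative phosphorylation genes were lower in 25 of 27 (median -2.67) and glycolysis and hypoxia genes in 18 of 25 (median -2.62). With quantile normalisation these medians were -1.44 and -1.17. In the 4 pairs below, picked after their values were seen, the muscle form of an enzyme was lower and the form of other tissues higher. Pgam2, Eno3 and Pfkm, the muscle forms of phosphoglycerate mutase, enolase and phosphofructokinase, differed by -12.97, -9.21 and -4.88, and Pgam1, Eno1 and Pfkl, the forms of other tissues, by 3.48, 1.79 and 3.01. Cox6a2, the muscle form of a cytochrome oxidase subunit, differed by -6.53. Cox6a1 differed by 1.71 and was the only 1 of the 27 oxidative phosphorylation genes that was higher. The skeletal muscle markers were lower as well, and their part in these lists was not tested. Ribosomal protein genes were lower in 28 of 40 (median -1.24), but their median was 0.72 after quantile normalisation and 0.67 in the deposited table, so no direction is given for them.

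Detoxification genes were higher in 14 of 27 and lower in 9 (median 1.04). Cyp1b1, a target of the aryl hydrocarbon receptor, was at 4.46 in the tissue and 5.11 in stem cells and not well above background in wild type ligament, at least 214-fold higher. Hmox1, haem oxygenase, was at 5.11 in the tissue, 2.85 in stem cells, 0.51 in wild type and 0.02 in transgenic ligament, 24.3-fold higher. Gpx3, a secreted glutathione peroxidase, was at 3.16 and 3.28 in the ligaments and undetected in both cultured samples, at least 467-fold lower. Complement genes were lower in 12 of 16, against 39.4% of all genes (median -4.36, or -2.33 over the 12 detected on both arrays). The regulator Serping1 (C1 inhibitor) was 46.2-fold lower, while C1s1 and C1ra, the proteases of the first complement component, were 15.1-fold and 10.8-fold higher. The MHC class II genes H2-Ab1 and H2-Eb1 were at least 428-fold and 259-fold lower, and B2m, the light chain of class I, 7.25-fold higher.

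Setting the tissue beside all other arrays, 65 genes were at least 4-fold above each of the other 3 and 119 at least 4-fold below each. The array held 30121 genes, of which 12969 were well above background on all 4 arrays. Those above included Epyc, Itih4, Cyp2f2, Gsta1, Rpe65 and Fbxo2. Cyp2f2, a cytochrome P450, was at 4.75 in the tissue and at 0.21, 0.66 and 0.69 in stem cells, wild type ligament and transgenic ligament. Gsta1, a glutathione transferase with close relatives whose probes may share signal, was at 1.55 in the tissue and -3.37 in stem cells. Those below included Klhl13, Lrg1, Anxa8, Podn and Crip1. Anxa8, an annexin, was at -1.10 in the tissue and at 4.39, 2.89 and 5.09 in stem cells, wild type ligament and transgenic ligament.

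The tissue lay within 2-fold of both ligaments, with the stem cells at least 4-fold away, for 34 genes with stem cells lower and 51 with stem cells higher. Only genes well above background in the tissue and both ligaments could enter, which are fewer than the 30121 on the array. The set with stem cells higher also needed detection in stem cells, and 12969 genes were well above background on all 4 arrays. In the first set were Slc16a10, Kcnma1, Dcn and Hoxa9, and in the second Cdca8, Ccnb1 and Bub1. The mirror pattern, stem cells within 2-fold of both ligaments and the tissue at least 4-fold away, held for 28 genes with the tissue lower, among them Gli1, Higd1a and Pttg1, and for 13 with the tissue higher, among them Cyp2f2, Fbxo2, Cth and Slc6a9.

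Stem cells against transgenic ligament is a second comparison of cultured cells with ligament, and it shares no array with the first. Of the 3780 genes higher in the tissue that also had a value there, 2770, or 73.3%, were at least 2-fold higher in stem cells and 41 were lower. Of the 6049 lower genes, 4740, or 78.4%, were lower there and 69 higher. Over the 15828 genes with both values the background was 24.7% higher and 35.4% lower. Across the 12969 genes measured on all 4 arrays, the pairs of differences had a Pearson correlation of 0.846 and a Spearman correlation of 0.828, described here without a test since genes are not replicates. Both comparisons set C3H culture against C57BL/6J ligament on 1 slide, and so share strain and origin. Fibrillar collagen and elastic fibre lists had medians of 0.04 and 3.21 there, skeletal muscle markers -12.75, tendon and ligament genes -2.50 and Hox C and D genes -5.25.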

How the data were processed

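Total RNA was extracted with an AllPrep kit, labelled with Cy3 by Quick Amp labelling and hybridised to 1-colour Agilent mouse arrays, per the labels' protocols. Per the file headers, all 4 arrays lay on 1 slide and were read with Agilent Feature Extraction 10.7.1.1, whereas the submitters' processing notes name 9.5.1.1. Probe positions are on mm9, per the file headers. The authors deposited scanner files whose processed intensity is background-subtracted by that software, and a table of processed intensity on a linear scale with the same quartiles in each column, whose method is not given in the sources used here and which served only as an alternative after log2.

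From the processed intensity of probes that are not controls, outlier spots were left out, spots of a probe averaged, log2 taken and the array's 75th percentile subtracted (Python 3.11.15, pandas 2.3.3). Each gene was represented by its probe of highest mean level across the 4 arrays. Of 39429 probes, 26855 were named through RefSeq accessions and 12574 by the symbol in the file. Feature Extraction's flag for signal well above background set which genes entered, and no spot was saturated. A call is a 2-fold difference, with bounds taken as described above. No samples were averaged and no test was run, since each group has 1 array, whose number limits the precision.

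Genes were named by rule: the 12 highest and 12 lowest measured differences, the 8 largest bounds each way, all members of the matrix and Hox lists, up to 6 members each way of the other lists, 10 genes of each pattern over the arrays and 10 with the smallest differences. Some genes that the rule names are not reported here. The genes compared, the 55 lists and the rules were chosen with earlier results of these data known. The steps were tested on simulated data, in which 95.5% of 200 changed genes among 30121 were called. Both simulated samples were made from the tissue array, and the changed genes were shifted past the 2-fold threshold. The simulation therefore does not cover differences in brightness or detection between arrays. Alternatives tried were normexp background correction (limma 3.58.1, offset 50), quantile normalisation, other scalings, the deposited table, other filters, the mean of all probes, a 4-fold threshold and outlier spots kept.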

Additional observations from a re-analysis of the deposited data

How the results depend on the processing

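No paired analysis was possible because each group has 1 array. The counts of genes called at 2-fold, 3817 higher and 6489 lower, stayed within 1.5 times of these values under normexp background correction, quantile normalisation, a 75th percentile over probes detected on all 4 arrays, centring on general housekeeping genes, the deposited value table, genes detected on both arrays, the mean of all probes and outlier spots kept, over which they ran from 2869 to 5187 higher and from 4812 to 6656 lower. Centring on ribosomal protein genes gave 8029 higher and 3609 lower, a 4-fold threshold 1626 and 4018, and no filter on dim probes 17693 lower. Scaling on spiked-in transcripts, chosen after seeing the data, gave 15371 higher and 962 lower. The median over genes of the change in a gene's difference was 0.46 with quantile normalisation, 0.44 in the deposited table, 0.22 with the percentile over shared probes, 1.27 with ribosomal centring and 0.14 with normexp correction. The ribosomal protein median turned from -1.24 to 0.72 with quantile normalisation, 0.036 with ribosomal centring and 0.67 in the deposited table. The metalloproteinase median became -0.37 without a filter, and that of hair keratins 0.061 with ribosomal centring. Col14a1 became 0.015 with ribosomal centring and Tll1 0.063 with the mean of its probes. These changes of sign were sought only among list medians and named genes that differed by at least 2-fold. Smaller list medians changed sign as well. The matricellular median went from 0.60 to -0.18 without a filter, and that of limb and face patterning genes from -0.61 to 0.12 with quantile normalisation. The causes were not tested. After the shift of 3.83 from spike-in scaling, 11 of 55 list medians stayed below 0, against 32 before it. Dim genes are limited by the ligament array's detection edge.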
